A study of Homo sapiens with 6 samples.

Results

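SULT1A1 and 6 further enzymes that conjugate, hydrolyse or supply electrons for the metabolism of drugs were followed in HK-2 cells, an immortalised line from human proximal tubule. The genes were SULT1A1, SULT1A2, EPHX1, TPMT, POR, CYB5R3 and CES2, picked by symbol from the 18969 gene rows of the deposited table, and all 7 had a row. They had been picked with earlier results of these libraries in view, so their differences between groups describe these libraries and support nothing further. Of the 7, 6 passed the filter on low counts that left 15046 genes to test, and SULT1A2 did not.

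The study compared 3 libraries labelled Nfe2l1 overexpression with 3 control libraries labelled wild type. The cells behind all 6 libraries had been given 20 µM cisplatin, which damages the proximal tubule, so the comparison is made within cisplatin-treated cells and untreated cells were not analysed here. The sources used here do not say how the gene was overexpressed, how long the treatment lasted, or whether libraries of a group came from separate cultures. If they did not, a p-value measures the spread between libraries only. The series title names Nrf1, an older name of NFE2L1, in tubular ferroptosis after cisplatin.

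NFE2L1, the transcription factor named in the labels, checked those labels first. It had 244.7, 744 and 339.5 CPM (read counts brought to a common library size by TMM) in libraries 1, 2 and 3 labelled overexpression, against 234.2, 253.4 and 246.2 CPM in controls 1, 2 and 3. Library 1 labelled overexpression lay within the control range and libraries 2 and 3 lay above it. In edgeR's quasi-likelihood test with Benjamini-Hochberg adjustment over all genes, its log2 fold change of 0.86 (SE 0.35) had an adjusted p of 0.115 and did not pass the threshold of 0.05. The value rested largely on library 2: leaving it out gave 0.25 (edgeR adjusted p = 0.265), whereas leaving out library 1 gave 1.14, which passed (adjusted p = 0.0286). The groups are therefore called by their labels throughout.

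Sequencing depth was 16865460 to 23458333 counts per library. Of the 17 proximal tubule markers, 7 had a row, and PAX8 and GATM were among those above 1 CPM in every library, whereas AQP1, SLC34A1 and SLC5A2 stayed at or below 1 CPM in all of them. The summed proximal tubule markers spanned 117.3 to 326.6 CPM in libraries labelled overexpression and 143.1 to 213.5 CPM in controls, with none called. The epithelial keratins KRT8, KRT18 and KRT19 and EPCAM, 4 of 5 epithelial markers, summed to 1907 to 2723 CPM in libraries labelled overexpression and to 1420 to 1555 CPM in controls, and KRT18 passed as higher. The 6 fibroblast markers with a row, of 8 listed, summed to 21.5 to 30.2 CPM in libraries labelled overexpression and 44 to 52.8 CPM in controls, and LUM passed as lower. The summed leukocyte markers reached at most 0.309 CPM in libraries labelled overexpression and 0.438 CPM in controls, and no endothelial marker had a row. The part of these marker differences in the results below was not tested.

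Drugs and other foreign compounds are commonly made water-soluble in steps. An oxidation, reduction or hydrolysis exposes a reactive group, and transferases then attach sulfate, glucuronic acid, a methyl group or glutathione. SULT1A1, a cytosolic sulfotransferase, moves sulfate from the donor PAPS to small phenols, and SULT1A2 is its close copy. EPHX1, the microsomal epoxide hydrolase, opens epoxides to diols, and CES2, a carboxylesterase, cleaves ester drugs such as irinotecan. TPMT methylates thiopurine drugs. POR passes electrons of NADPH to microsomal cytochrome P450 enzymes, and CYB5R3 passes electrons of NADH to cytochrome b5. The proximal tubule takes up, conjugates and secretes many such compounds.

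The SULT1A copies are alike enough that reads can fit more than 1 of them, so the sequences that separate SULT1A1 from SULT1A2 are shown. SULT1A1 (ENSG00000196502) lies on the minus strand of chromosome 16 at 28603944 to 28623625, and SULT1A2 (ENSG00000197165) on the same strand at 28591943 to 28597050, in the GRCh38.p13 positions of the deposited table, with 6894 bases between their spans. In the GENCODE models of GRCh38, their coding sequences have 888 bases each, of which 860 are identical and 28 differ, an identity of 96.8%. The 60 coding bases at 433 to 492, counted from 1 at the A of the start codon, hold the most differences, with 7, which stand in capitals below.
SULT1A1: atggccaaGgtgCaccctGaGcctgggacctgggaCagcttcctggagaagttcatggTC
SULT1A2: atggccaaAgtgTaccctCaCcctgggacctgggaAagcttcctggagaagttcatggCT
The longest stretch without a difference covers 128 coding bases, at 25 to 152, and a read that lies inside it fits both genes.
SULT1A1 and SULT1A2: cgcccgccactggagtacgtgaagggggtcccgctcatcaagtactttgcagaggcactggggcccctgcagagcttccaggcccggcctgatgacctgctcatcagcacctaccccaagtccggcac
Against SULT1A3 and SULT1A4, further copies on chromosome 16, the aligned coding sequences were 92.6% identical, with a longest run of 149 bases within that alignment. Stretches shared between whole transcripts can be longer, as the windows of 150 bases below show. Across the SULT1A1 transcript of 1162 bases, 35.2% of all windows of 50 bases were found in at least 1 copy, 14.1% of windows of 100 bases and 3.95% of windows of 150 bases. The sources used here give neither the read length nor the handling of reads that fit several genes, so the split of reads between the copies is uncertain.

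SULT1A1 had 59.0, 72.6 and 45.4 CPM in libraries 1, 2 and 3 labelled overexpression, against 16.4, 17.6 and 14.3 CPM in controls 1, 2 and 3. These values rest on 954, 1552 and 969 reads in libraries labelled overexpression and 381, 401 and 302 reads in controls. The groups did not overlap, and the lowest library labelled overexpression, library 3, still lay well above the highest control, control 2. SULT1A1 averaged 59.0 ± 13.6 CPM in libraries labelled overexpression and 16.1 ± 1.66 CPM in controls (SD, n = 3 each), a 3.67-fold difference of means. SULT1A1 was higher in the libraries labelled overexpression, by 1.87 on the log2 scale (SE 0.22, edgeR adjusted p = 0.0105), and it stood at place 27 of 15046 genes by log2 fold change. Because such values had a part in the choice of this gene, they are a description. In bulk RNA, more cells with the transcript and more transcript per cell cannot be told apart.

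The difference was not of 1 size in all libraries. Relative to the control mean, library 1 labelled overexpression stood 3.66-fold higher, library 2 stood 4.51-fold higher and library 3 stood 2.82-fold higher. Library 1, whose NFE2L1 level lay within the control range, thus lay between the other two for SULT1A1. Leaving library 1 out gave 1.87 again on the log2 scale (edgeR adjusted p = 0.0234). In the authors' deposited table the log2 fold change of SULT1A1 was 1.84, with an adjusted p of 3.61e-10. The edgeR call was lost without control 1 (log2 fold change 1.88, adjusted p = 0.0811) and without control 2 (1.94, adjusted p = 0.0694). That loss was not particular to SULT1A1: of all genes, 1 passed without control 1 and 0 without control 2.

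SULT1A2, the neighbouring copy, was near the limit of detection. It was counted with 2, 8 and 8 reads in libraries labelled overexpression and with 1, 6 and 4 reads in controls, and the groups overlapped. Its reads came to 0.518% of the SULT1A1 reads in libraries labelled overexpression (18 against 3475) and to 1.01% in controls (11 against 1084). When the filter on low counts was left off, its log2 fold change was 0.81 (SE 0.73, edgeR adjusted p = 0.488), which did not pass. Counting SULT1A1 together with its copies was a check chosen after seeing the data. It gave 1.83 on the log2 scale (edgeR adjusted p = 0.0105), close to that of SULT1A1 alone. The copies held few reads beside SULT1A1, so this sum could hardly have differed and does not test the split of reads. This sum also holds only reads that were assigned to a copy. SULT1A3 was itself at 0.124, 0.889 and 0.468 CPM in libraries labelled overexpression and at 0.388, 0.526 and 0.616 CPM in controls. SULT1A4 was not analysed here.

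The hydrolases came next. CES2 (ENSG00000172831; plus strand of chromosome 16 at 66934444 to 66945096) had 65.1, 73.5 and 50.4 CPM in libraries labelled overexpression, against 49.1, 41.4 and 45.9 CPM in controls. The lowest library labelled overexpression, library 3, lay just above the highest control, control 1, so the groups did not overlap. CES2 averaged 63.0 ± 11.7 CPM in libraries labelled overexpression and 45.5 ± 3.84 CPM in controls (SD, n = 3 each). Its log2 fold change of 0.47 (SE 0.19) did not pass, with an edgeR adjusted p of 0.105, and in the authors' deposited table it was 0.44 with an adjusted p of 0.133. On FPKM rescaled to 1 common sum it was 0.01 (limma adjusted p = 0.95).

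EPHX1 (ENSG00000143819; plus strand of chromosome 1 at 225810124 to 225845563) had 211.5, 320.2 and 244.8 CPM in libraries labelled overexpression, against 165.7, 209.7 and 272.4 CPM in controls. Control 3 exceeded libraries 1 and 3 labelled overexpression, so the groups overlapped. Its log2 fold change of 0.26 (SE 0.22, edgeR adjusted p = 0.427) did not pass. Single libraries moved it: it was 0.39 without library 1 and 0.07 without library 2 labelled overexpression, and 0.10 without control 1 and 0.46 without control 3.

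TPMT (ENSG00000137364; minus strand of chromosome 6 at 18128311 to 18155077) was the member with a negative difference. It had 85.5, 128.8 and 98.5 CPM in libraries labelled overexpression, against 149.2, 121.9 and 115 CPM in controls. Libraries 1 and 3 labelled overexpression lay below all controls, whereas library 2 lay above controls 2 and 3. The log2 fold change was -0.30 (SE 0.19, edgeR adjusted p = 0.292) and did not pass. It was -0.18 without library 1 and -0.49 without library 2 labelled overexpression (edgeR adjusted p = 0.547 and 0.05), and -0.19 without control 1 (adjusted p = 0.624), none of them under the threshold.

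The electron suppliers showed wide spreads among libraries labelled overexpression. POR (ENSG00000127948; plus strand of chromosome 7 at 75899200 to 75986855) had 42.4, 73.7 and 55.4 CPM in libraries labelled overexpression, against 43.1, 56.9 and 61.2 CPM in controls. Its controls lay inside the range of the libraries labelled overexpression, and the log2 difference was 0.09 (SE 0.23, edgeR adjusted p = 0.81). CYB5R3 (ENSG00000100243; minus strand of chromosome 22 at 42617840 to 42649392) had 140.4, 234.1 and 153 CPM in libraries labelled overexpression, against 164.3, 147.2 and 146.3 CPM in controls. Library 2 labelled overexpression stood above all others and library 1 below all controls, and the log2 difference was 0.20 (SE 0.21, edgeR adjusted p = 0.508). Leaving out library 2 labelled overexpression turned both differences negative, to -0.14 for POR and -0.06 for CYB5R3. POR was 0.26 without library 1 labelled overexpression and -0.05 without control 1, and CYB5R3 was 0.34 without library 1.

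**Figure D1:**
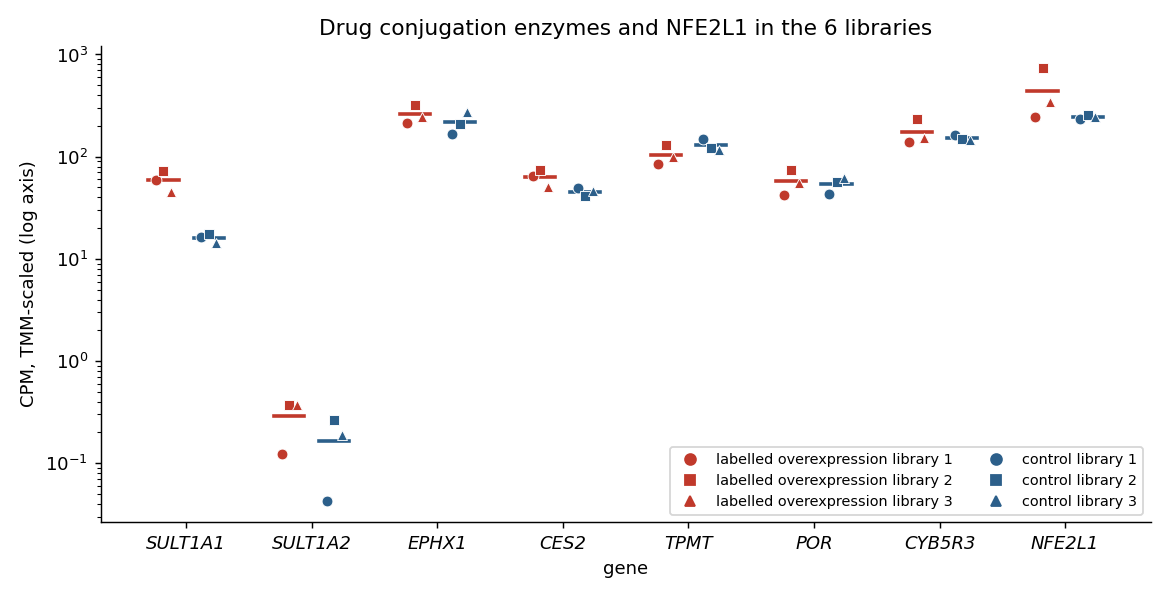
CPM on a log axis of the 7 enzymes and NFE2L1 in each of the 3 libraries labelled overexpression (red, left of each pair) and the 3 controls (blue); marker shapes give the library number and bars the group means. SULT1A1 stands at 45.4 to 72.6 CPM in libraries labelled overexpression and 14.3 to 17.6 CPM in controls, whereas the groups of EPHX1, TPMT, POR and CYB5R3 overlap.

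Of the 6 enzymes tested, SULT1A1 was called as higher and none as lower, beside 9.62% of all genes called higher and 9.49% called lower (19.1% in all). SULT1A1 and CES2 were the members whose groups did not overlap, both higher, beside 21.8% of all genes with groups that did not overlap in that direction, 20.9% in the other and 42.6% in either. The median log2 fold change was 0.23 over the 6 and 0.03 over all genes tested. The split of calls differed between fits: edgeR called 1448 genes higher and 1428 lower, limma on log2(FPKM + 1) called 1198 and 2027, and limma on FPKM rescaled to 1 common sum, where the median of all genes was -0.35, called 533 and 4170. TPMT passed as lower on the rescaled FPKM (-0.74, limma adjusted p = 0.013) and not without the rescaling (-0.44, adjusted p = 0.0911). SULT1A1 was the 1 member called higher there, at 1.36 (limma adjusted p = 0.00364). Among the libraries labelled overexpression, library 2 gave the highest value for all 6 enzymes, and it gave the highest value for 41.4% of all genes. Library 1 gave the lowest value for EPHX1, TPMT, POR and CYB5R3, and library 3 for SULT1A1 and CES2.

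Levels per transcript length, in FPKM as the authors deposited them, put SULT1A1 in another place of the order in each group. In libraries labelled overexpression the order by mean was EPHX1, CYB5R3, SULT1A1, TPMT, POR, CES2 and SULT1A2, with SULT1A1 at 48.1 ± 9.16 FPKM and SULT1A2 at 0.268 ± 0.134 FPKM (SD, n = 3). In controls it was EPHX1, CYB5R3, TPMT, POR, CES2, SULT1A1 and SULT1A2, with SULT1A1 at 14.5 ± 1.32 FPKM and SULT1A2 at 0.168 ± 0.114 FPKM (SD, n = 3). SULT1A1 was thus at place 3 in libraries labelled overexpression and at place 6 in controls. Some neighbours in these orders did not differ beyond the spread: the ranges of CYB5R3 and SULT1A1, of TPMT and POR, and of POR and CES2 overlapped in libraries labelled overexpression, and those of CES2 and SULT1A1 overlapped in controls. For the other enzymes, EPHX1 was at 150.1 ± 27.2 FPKM in libraries labelled overexpression and 138.7 ± 36.4 FPKM in controls (SD, n = 3 each). CYB5R3 was at 57.1 ± 14.2 FPKM in libraries labelled overexpression and 54.8 ± 3.22 FPKM in controls, and POR at 22.2 ± 5.4 FPKM in libraries labelled overexpression and 23.0 ± 4.3 FPKM in controls (SD, n = 3 each). TPMT was at 31.1 ± 5.55 FPKM in libraries labelled overexpression and 42.3 ± 5.52 FPKM in controls, and CES2 at 20.8 ± 3.08 FPKM in libraries labelled overexpression and 16.6 ± 1.42 FPKM in controls (SD, n = 3 each). The FPKM of a library summed to 605615 to 626091 in libraries labelled overexpression and 484861 to 519524 in controls, so an FPKM level is not on an identical scale in both groups.

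Short transcripts were higher in the libraries labelled overexpression as a body, and SULT1A1 is a short one. The length behind its FPKM was 1.16 kb, and in the class of genes between 0.882 and 1.45 kb, one of 10 equal classes by length, the median log2 fold change was 0.55, with 28.7% of genes called higher and 0.664% called lower. In the class of the longest genes the median was -0.49. SULT1A1 exceeded the ninetieth percentile of log2 fold changes in its own length class, which was 1.11. With SULT1A1 at place 27 of all genes tested and 1505 genes in the class, no other outcome was possible. The gene was also chosen with such values in view, so this comparison is a description and does not test the part of length. EPHX1, at 1.64 kb, was in a class with a median of 0.37. POR and CES2, at 2.45 and 2.87 kb, were in a class with a median of 0.12, and TPMT and CYB5R3, at 3.19 and 2.92 kb, in one with a median of -0.05.

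**Figure D2:**
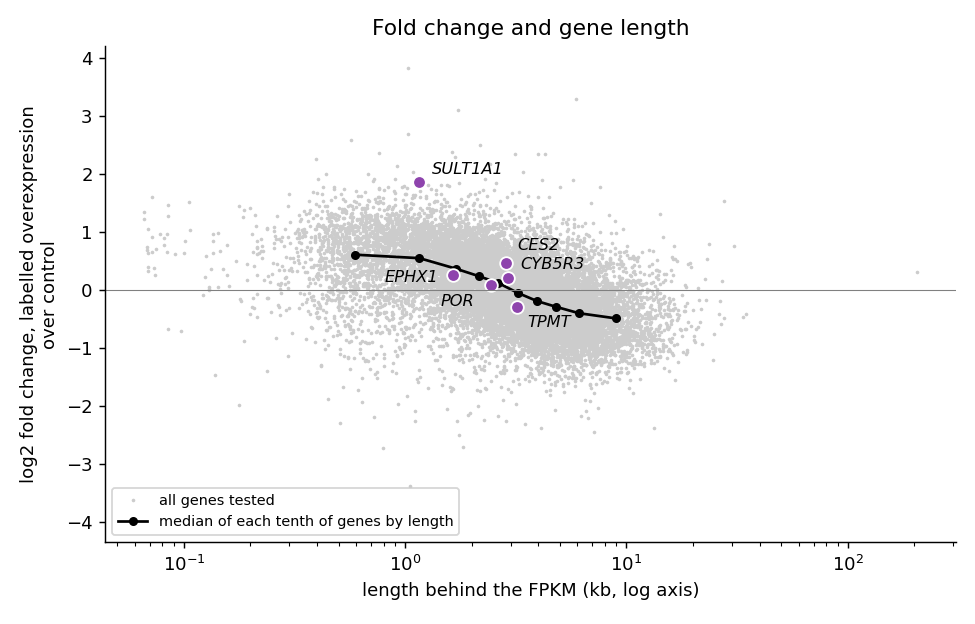
Log2 fold change of libraries labelled overexpression over controls against the length behind the FPKM (kb, log axis) for all 15046 genes tested (grey), with the median of each of 10 equal classes by length (black) and the 6 tested enzymes (purple). SULT1A1 at 1.87 lies above the median of 0.55 of its length class, and CES2 at 0.47 lies above the 0.12 of its class.

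When each library's trend with length and GC content was taken out as an offset, the log2 fold change of SULT1A1 was 1.26 and it passed with an edgeR adjusted p of 0.0394. With that offset 0.698% of all genes passed, 0.465% as higher and 0.233% as lower. With an offset for length alone it was 1.40 (adjusted p = 0.0254). CES2 came to 0.24 with the length and GC offset (edgeR adjusted p = 0.454), EPHX1 to -0.24 (adjusted p = 0.456) and POR to -0.39 (adjusted p = 0.24). TPMT came to 0.12 (edgeR adjusted p = 0.809) and CYB5R3 to -0.15 (adjusted p = 0.643). The signs of EPHX1, POR, TPMT and CYB5R3 thus turned with the offset, and none of the 4 passed with or without it.

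**Figure D3:**
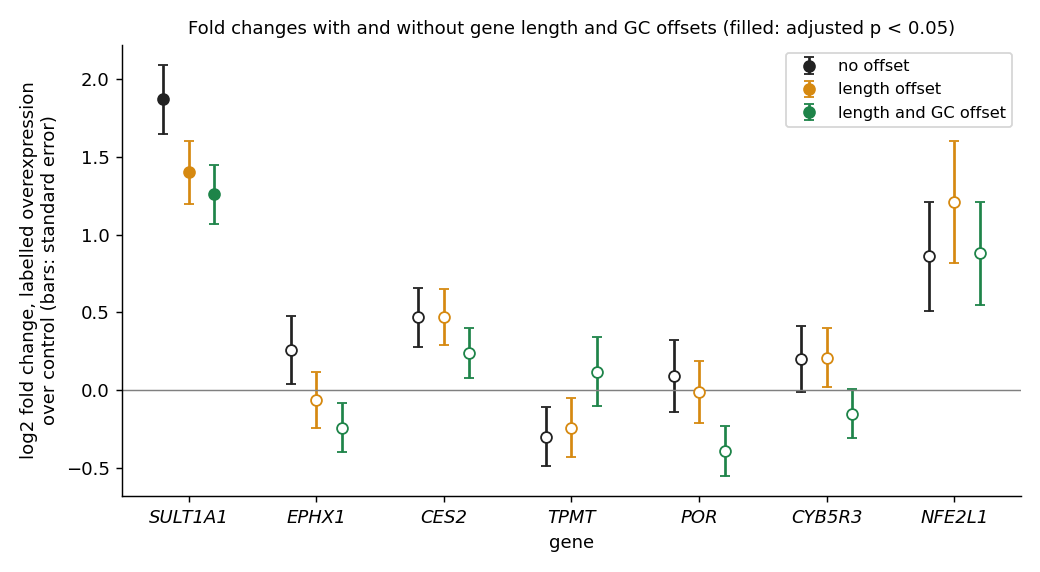
Log2 fold change of libraries labelled overexpression over controls for the 6 tested enzymes and NFE2L1, with no offset (black), a length offset (orange) and a length and GC offset (green); bars are standard errors and filled points have an adjusted p under 0.05. SULT1A1 is filled in all 3 fits, at 1.87, 1.40 and 1.26, and no other gene is filled in any of them.

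Other genes of drug metabolism were described from lists. Of 184 listed besides the 7 enzymes, 109 had a row and 99 were tested, of which 4 rose and 10 fell, or 4.04% and 10.1%, beside 9.62% and 9.49% of all genes. Their median log2 fold change was -0.04, and with the length and GC offset 0 passed in either direction in edgeR. Every call named in the paragraphs on these lists was therefore lost under that offset, though each called gene kept its sign. The log2 fold changes shrank by unlike amounts, such as PAPSS1 from -0.60 to -0.54 and ITPA from 0.85 to 0.11. The counts also rested on single libraries. Without control 1 or control 2, 0 of these genes rose and 0 fell in edgeR, while 3962 and 3863 of all genes had an unadjusted p under 0.05; without control 3, 0 rose and 3 fell. Leaving out library 1 labelled overexpression gave 4 rises and 7 falls, leaving out library 2 gave 8 and 17, and leaving out library 3 gave 3 and 5.

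Among the genes that serve sulfation, PAPSS1, which makes the sulfate donor PAPS, fell by 0.60 on the log2 scale, with 38.5, 43.4 and 42 CPM in libraries labelled overexpression against 62.1, 68 and 57.2 CPM in controls (SE 0.16, edgeR adjusted p = 0.033). PAPSS2, which does the same, had 123.6, 141.1 and 138.5 CPM in libraries labelled overexpression and 224.7, 184.8 and 159.7 CPM in controls, and did not pass (log2 fold change -0.50, edgeR adjusted p = 0.0677). In both genes the groups did not overlap, with the libraries labelled overexpression lower. Of the 10 sulfation genes tested besides SULT1A1, 0 rose and PAPSS1 fell, with a median log2 fold change of -0.32. In the glucuronidation list, 5 of 24 genes had a row and were tested, and SLC35D1, which carries UDP-glucuronic acid into the endoplasmic reticulum, fell by 0.89 on the log2 scale (SE 0.21, edgeR adjusted p = 0.0243).

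Of the 4 rises, 3 were in the list of methyl and acetyl conjugation. NNMT, which methylates nicotinamide, had 343, 249 and 267.6 CPM in libraries labelled overexpression against 138.7, 179.2 and 138.5 CPM in controls, a rise of 0.91 on the log2 scale (SE 0.18, edgeR adjusted p = 0.0154). METTL7B, a thiol methyltransferase, rose by 1.18 on the log2 scale (edgeR adjusted p = 0.0485), and AHCY, which hydrolyses the S-adenosylhomocysteine left by methylation, rose by 0.65 (adjusted p = 0.0258). MAT2A, which makes the methyl donor S-adenosylmethionine, fell by 0.67 on the log2 scale (edgeR adjusted p = 0.0498). Of the 11 methyl and acetyl conjugation genes tested besides TPMT, 3 rose and 1 fell, with a median of 0.19. METTL7B is itself short, at 1.32 kb.

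Around TPMT, the thiopurine list of 11 tested genes gave 1 rise and 0 falls, with a median log2 fold change of -0.32. The riser was ITPA, which clears inosine triphosphate and thiopurine triphosphates, with 69.8, 91.7 and 62 CPM in libraries labelled overexpression against 42.5, 42.2 and 39.3 CPM in controls, a rise of 0.85 on the log2 scale (SE 0.19, edgeR adjusted p = 0.0191). ITPA has a length of 1.04 kb, and its log2 fold change with the length and GC offset was 0.11 (adjusted p = 0.753).

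Among 11 esterases and epoxide hydrolases tested besides EPHX1 and CES2, 0 rose and 2 fell, with a median log2 fold change of -0.00. NCEH1, a hydrolase of cholesterol esters, had 142.1, 162.3 and 162.9 CPM in libraries labelled overexpression against 433.7, 308.4 and 267.7 CPM in controls, a change of -1.11 on the log2 scale (SE 0.20, edgeR adjusted p = 0.0125). BCHE, the butyrylcholinesterase, fell by 0.54 on the log2 scale (edgeR adjusted p = 0.0377). EPHX2, the soluble epoxide hydrolase, was at 3.15 to 4.35 CPM in libraries labelled overexpression and 2.28 to 2.84 CPM in controls and did not pass (log2 fold change 0.56, edgeR adjusted p = 0.177). CES1 was not analysed here.

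The genes listed with POR and CYB5R3 for electron supply mostly did not pass. Of 12 tested besides these 2, 0 rose and 1 fell, with a median log2 fold change of -0.05. This list is wider than the microsomal chain, and FDX1 and FDXR, for example, are mitochondrial. Its count and median therefore do not describe microsomal electron supply alone. The one that fell was MTRR, a flavoprotein related to POR that keeps methionine synthase active, by 0.68 on the log2 scale (SE 0.19, edgeR adjusted p = 0.0376). The cytochrome b5 genes CYB5A and CYB5B had log2 fold changes of 0.28 and 0.02 (edgeR adjusted p = 0.187 and 0.919), and the further b5 reductases CYB5R1 and CYB5R4 had 0.51 and -0.52 (adjusted p = 0.209 and 0.0606). The heme oxygenases HMOX1 and HMOX2, which take electrons from POR, had 0.83 and 0.31 (adjusted p = 0.068 and 0.291).

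Of 22 cytochrome P450 and flavin monooxygenase genes tested out of 59 listed, 0 rose and 2 fell, with a median of 0.12. CYP1B1, an extrahepatic P450 that oxidises polycyclic hydrocarbons and oestrogens, had 30.9, 42.3 and 29.8 CPM in libraries labelled overexpression against 72.2, 60.4 and 73.5 CPM in controls, and the averages of 34.3 ± 6.9 CPM in libraries labelled overexpression and 68.7 ± 7.22 CPM in controls (SD, n = 3 each) differed with an edgeR adjusted p of 0.0144. CYP24A1, which inactivates vitamin D in the tubule, fell by 0.70 on the log2 scale (edgeR adjusted p = 0.0473). Of 8 efflux transporters tested, 0 rose and 2 fell, with a median of -0.57: ABCB1, the P-glycoprotein that exports many drugs, had 29.2, 30.3 and 32 CPM in libraries labelled overexpression against 58.7, 51.6 and 47.2 CPM in controls, a log2 change of -0.78 (SE 0.17, edgeR adjusted p = 0.0181). ABCC5, an exporter of nucleotide analogues, fell by 0.72 on the log2 scale (edgeR adjusted p = 0.0398). Both genes are long, ABCB1 at 5.21 kb and ABCC5 at 5.79 kb. With the length and GC offset the median of the 8 was -0.30, and ABCB1 came to -0.30 (edgeR adjusted p = 0.362). Of the 7 regulators of xenobiotic genes tested, 0 passed in either direction in edgeR, and their median was -0.29.

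**Figure D4:**
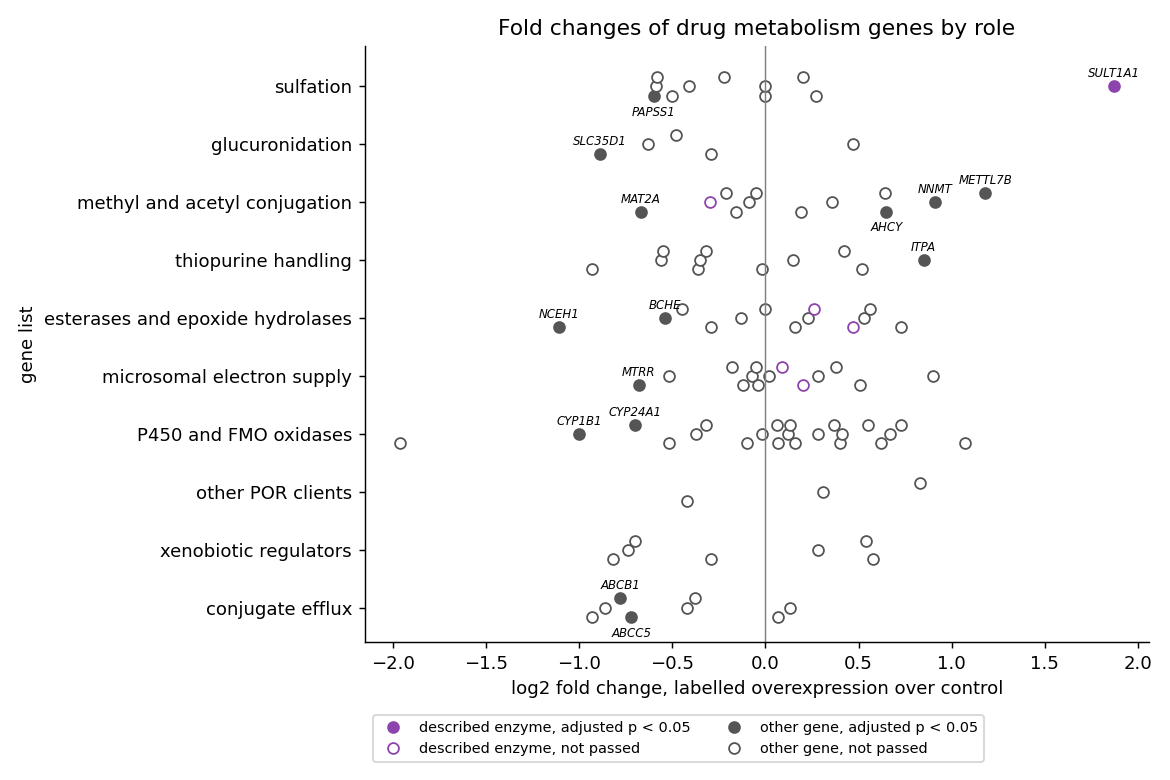
Log2 fold change of libraries labelled overexpression over controls for the tested genes of 10 drug metabolism lists, with the enzymes described here in purple, other genes in grey and filled points for an adjusted p under 0.05. SULT1A1 at 1.87 lies to the right of every other gene shown, and the next called gene to its left is METTL7B at 1.18.

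The genes whose profile over the 6 libraries was most like that of SULT1A1 were chosen by the root mean square distance of log2 CPM centred on each gene's mean, a measure into which the group difference enters. They were TMEM160 (distance 0.134), UQCC3 (0.179), ZNF358 (0.193), CTXN1 (0.202) and EGFL7 (0.219), each over 6 libraries. Their log2 fold changes were 1.69 for TMEM160, 1.61 for UQCC3, 1.65 for ZNF358, 1.58 for CTXN1 and 1.85 for EGFL7. These 5 genes had lengths of 0.655 to 1.97 kb and a GC content of 55.9 to 72.8%, beside 1.16 kb and 55.5% for SULT1A1. The part of length and GC content in this likeness was not tested. Of the other 5 enzymes, CES2 was the nearest, at 0.709 with 2582 genes closer, and TPMT the farthest, at 1.1 with 9235 genes closer. NFE2L1 itself was at 0.697, with 2427 genes closer.

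Promoter sequence was examined because NFE2L1 and its relative NFE2L2 bind the antioxidant response element and AHR, a sensor of aromatic hydrocarbons, binds the xenobiotic response element. The RefSeq promoter windows of GRCh38.p14, which run from 250 bases before a start to 50 bases after it, matched CES2, CYB5R3, EPHX1 and TPMT, with 10 windows in all. SULT1A1, SULT1A2 and POR are named only. The antioxidant response element core TGACNNNGC, searched on both strands, was found in 2 of the 10 windows, while 13.3% of all 35116 windows of the table held it. Both matches belong to starts inside the gene spans given above. The windows at the outer ends of those spans, chr1:225809874-225810173 for EPHX1 and chr22:42649343-42649642 for CYB5R3, held no match to this core. The matches are shown with their flanks, with the core in capitals. The first is in the EPHX1 window chr1:225825104-225825403 (plus strand), 78 bases before the start of that window. The second is in the CYB5R3 window chr22:42644577-42644876 (minus strand), 211 bases before the start of that window.
EPHX1: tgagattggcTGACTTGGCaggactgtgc
CYB5R3: ggctgtgcacTGACGCAGCtgtgctggaa
The xenobiotic response element core GCGTG, also on both strands, was found in 3 of the 10 windows, beside 36.5% of all windows. These were a CES2 window and the CYB5R3 and EPHX1 windows that held the other core, and no match overlapped one of the other motif. The windows of TPMT held neither. These matches are descriptions of sequence, and neither EPHX1 nor CYB5R3 passed the test of difference.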

How the data were processed

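Libraries of HK-2 RNA were prepared with an mRNA kit that keeps strand, per the labels' protocols. Trimmomatic 0.36 and the GRCh38 build appear in the submitters' processing notes. For the aligner, the counter and its strand setting, no name is given in the sources used here. Raw counts of reads for each gene were deposited for 6 libraries (16865460 to 23458333 in total), all with at least 10 counts summed over the libraries. They also deposited FPKM values, from which transcript length was recovered as the ratio of count to FPKM. The authors' deposited log2 fold changes and p-values come with no stated test, and each sentence that uses them names the authors' deposited table. Groups follow the library names in the labels.

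Counts were tested with edgeR 4.0.16 (R 4.3.3; filterByExpr, TMM, glmQLFit, glmQLFTest; Benjamini-Hochberg over 15046 genes, threshold 0.05). "Called", "passed", "rose" and "fell" refer to that threshold. A CPM is a count scaled to a common library size after TMM scaling, and standard errors come from the F statistic. The biological coefficient of variation was 0.249. Alternatives used DESeq2 1.42.0, limma 3.58.1 on log2(FPKM + 1) and log2(FPKM + 0.1), no filter, a replicate block, length and GC offsets (mgcv 1.9.3; GC content known for 99.24% of tested genes) and leaving out each library. Counts were simulated for this comparison with 15046 genes and 200 changed. There the test recovered 2.99% of 1.5-fold, 28.4% of 2-fold and 77.3% of 4-fold changes. In the data 2876 genes were called, and the adjustment depends on that share, so these recoveries need not hold here.

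The members and gene lists were chosen with earlier results of these data known. Genes named were NFE2L1, the 7 members, up to 4 called genes of each list with the smallest adjusted p, direct partners of a member, the 5 genes most like SULT1A1 in profile, and overlapping or neighbouring genes. Some genes under this rule are not reported here. Sequences come from GENCODE 29 and RefSeq.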

Additional observations from a re-analysis of the deposited data

How the results depend on the processing

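SULT1A1 stayed positive in all 16 alternatives, at 1.26 to 2.03 on the log2 scale, and passed in 13 of them (adjusted p 3.43e-10 in DESeq2 to 0.0811 in edgeR). Among the 16, and among the 13, is the sum of the SULT1A copies, which was chosen after seeing the data and could hardly have differed. Leaving out libraries gave 1.69 to 2.03. In edgeR 1448 genes were higher and 1428 lower, 1 and 0 of the members, and 4 and 10 of the other drug metabolism genes. With a replicate block 0 genes were called in either direction in edgeR (4413 had an unadjusted p under 0.05). Thus 0 members and 0 other drug metabolism genes passed, and SULT1A1 was weaker in p alone (1.85, edgeR adjusted p = 0.0576). The block pairs libraries by number, and deviations of same-numbered libraries correlated at 0.01, -0.51 and 0.09. Differently numbered pairs ran from -0.5 (overexpression 1 with control 3) to 0.6 (overexpression 1 with control 2). Whether libraries were paired in some way was not tested. FPKM rescaled to 1 sum per library moved the median of the 12424 genes tested in limma to -0.35. It gave 533 genes higher and 4170 lower, among them 1 member lower (TPMT, -0.74, limma adjusted p = 0.013). Of the other drug metabolism genes, 0 were higher and 35 lower. A length offset gave 506 higher and 506 lower (2 and 4 other drug metabolism genes), and the length and GC offset 70 and 35 (0 and 0), of which 94 of 105 were also called without it. DESeq2's Wald test called 8 and 18 of the other drug metabolism genes, and limma called 17 lower with each pseudocount. Leaving out 1 library gave 0 to 1775 genes higher and 0 to 1874 lower, 0 to 1 member higher, and 0 to 8 higher and 0 to 17 lower among the other drug metabolism genes; without control 2 no gene passed in edgeR (3863 at an unadjusted p under 0.05). Signs of enzymes not called in edgeR turned: EPHX1 (-0.17 rescaled, -0.06 length, -0.24 length and GC), TPMT (0.12 length and GC), POR (-0.07 and -0.07 in limma, -0.36 rescaled, -0.01 length, -0.39 length and GC, -0.14 to 0.26 over libraries left out) and CYB5R3 (-0.27 rescaled, -0.15 length and GC, -0.06 to 0.34 over libraries left out). NFE2L1 was 0.25 to 1.14 over libraries left out, passing without library 1 labelled overexpression (1.14, adjusted p = 0.0286) and at 0.25 without library 2 (adjusted p = 0.265), and 0.25 on rescaled FPKM (adjusted p = 0.564). EPHX1 was 0.07 to 0.46, TPMT -0.49 to -0.18 and CES2 0.34 to 0.61 over libraries left out, and CES2 was 0.01 on rescaled FPKM. Rescaling multiplies each library by 1 factor, so in well-expressed genes it lowers every limma log2 fold change by a similar amount. On log2(FPKM + 1), TPMT went from -0.44 to -0.74 and SULT1A1 from 1.65 to 1.36. The cause of the other moves was not tested. With 3 libraries a group, 2-fold changes were mostly missed on simulated counts. Far more genes were called in these libraries than were changed in the simulation, so that recovery need not hold here. SULT1A2 was too thinly counted to test.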

Other observations

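Genes that lie over or beside the enzymes were read for shared signal, since the counting strand is not stated and reads of overlapping antisense genes then cannot be told apart. TMEM120A, on the opposite strand, shares 25 bases with the end of POR; it had 18.4, 14.7 and 17 CPM in libraries labelled overexpression against 8.23, 8.85 and 8.38 CPM in controls and rose by 0.98 on the log2 scale (SE 0.20, edgeR adjusted p = 0.0165), whereas POR did not pass. EPHX1 is overlapped on the opposite strand by TMEM63A over 28 bases (log2 fold change -0.29, edgeR adjusted p = 0.293) and by the lncRNA ENSG00000242861 over 4681 bases (0.97, adjusted p = 0.197), this lncRNA being at 0.749 to 2.41 CPM in libraries labelled overexpression and 0.474 to 1.01 CPM in controls. The pseudogene RPL7L1P3 within POR, on its strand, had at most 9 reads in a library and was not tested.

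On chromosome 16, SGF29, a chromatin reader of the SAGA complex that lies 153 bases from SULT1A2 on the opposite strand, had 14.8, 11.7 and 12.6 CPM in libraries labelled overexpression against 6.76, 10.1 and 8.05 CPM in controls; the groups did not overlap, and the test did not pass (log2 fold change 0.65, edgeR adjusted p = 0.0821). EIF3C, a translation initiation factor subunit 64933 bases on the other side of SULT1A1, had overlapping groups (log2 fold change -0.70, edgeR adjusted p = 0.231). EIF3C has a near-identical copy, so its counts are uncertain. SGF29 and EIF3C are the nearest tested genes on each side of the SULT1A pair, and neither was called alongside SULT1A1. Genes that were not tested were passed over, so these 2 do not describe the region as a whole.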
